A study of Arabidopsis thaliana with 12 samples.

Results

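The core cell cycle genes of Arabidopsis thaliana studied here are 46 genes chosen by their identifiers from a count table of 34262 genes: the A-, B- and D-type cyclins, the CDKA and CDKB kinases, the KRP and SIM families of kinase inhibitors, RBR1, the E2F, DP and DEL1 genes and WEE1. They were followed in Col-0, the wild type, and in a WUS-GR line (whole seedlings of each), in which the ubiquitously active UBQ10 promoter drives the stem cell regulator WUSCHEL (WUS) fused to mCherry and to the hormone-binding domain of the glucocorticoid receptor, so that the protein acts once dexamethasone (DEX) is given. Seedlings 5 days after germination were submerged for 2 h in DEX alone or in DEX with 1 µM trichostatin A (TSA), an inhibitor of histone deacetylases, and poly(A)-selected RNA of 3 replicates of each of the 4 groups was sequenced. The groups are Col-0, WUS-GR, Col-0 with TSA and WUS-GR with TSA, and every group received DEX, for which the sample labels give 25 µM and the methods a lower dose. No WUS-GR seedlings without DEX are used here, so that the WUS effect, as the difference of WUS-GR from Col-0 is called below, also holds any other difference between the lines. In whole seedlings, fewer cells of a type and less RNA per cell cannot be told apart.

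D-type cyclins bind CDKA;1 to start the cell cycle in G1, and this kinase phosphorylates the retinoblastoma protein RBR1, which otherwise holds E2F-DP transcription factors inactive at the genes of DNA replication. A-type cyclins act mainly from S phase to G2, and B-type cyclins with the plant-specific CDKB kinases take cells from G2 into mitosis. KRP and SIM proteins bind the cyclin-CDK complexes and inhibit them, and in plants they are known for slowing division and for the switch to endoreduplication, in which cells copy their DNA without dividing.

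Total counts ran from 14810658 to 21578662 per library. WUS itself, the check of the labels, ranged from 27 to 52 counts per Col-0 library and from 94664 to 142276 per WUS-GR library. Transcripts encoded by the plastid took 0.0778 to 0.170% of each Col-0 library and 0.315 to 1.32% of each WUS-GR library, and their part in the WUS effects given below was not tested. The root hair markers COBL9 and EXP7 had 0 counts and 0 to 1 count per library and the root meristem genes PLT1, PLT2 and WOX5 at most 6, although the labels name whole seedlings, while the leaf genes RBCS1A, CAB1 and GLK1 had 21586 to 40038, 148599 to 300927 and 91 to 1162 counts. The shoot meristem genes STM and CLV1 had 35 to 117 and 218 to 1717 counts, and CLV3, which marks the shoot stem cells, had 0 to 4. Libraries were scaled by TMM, which sets the bulk of genes equal between libraries. Scaled by their totals alone, the median of all genes moved from -0.01 to -0.24 (log2) for the WUS effect with TSA, from -0.03 to -0.41 for the TSA effect in WUS-GR and from 0.00 to -0.32 for the interaction, and it moved by less than 0.1 in the other comparisons. With that scaling the higher and lower calls over all genes went from 4555 and 4698 to 2774 and 7024 for the WUS effect with TSA, from 6077 and 6502 to 3853 and 9211 for the TSA effect in WUS-GR, and from 3176 and 2384 to 1569 and 5741 for the interaction.

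The level of the core genes differed by class. As RPKM (counts scaled for exon length and library size), averaged over all libraries, the kinase CDKA;1 was highest at 25.2, followed by RBR1 at 18.3, CYCD3;2 at 17.3, KRP6 at 13.6 and KRP4 at 11.6. The highest S to G2 gene, CYCA2;2, reached 2.24 RPKM in its highest group, and the highest gene of G2 to M, CDKB2;1, 1.55 RPKM. The 9 B-type cyclins of the core set, the markers of cells entering mitosis, had between 0 and 19 counts in any library. Of the 46 genes, 31 had enough counts for a test in at least 1 comparison and 25 in all 5. The 15 that were never tested had at most 14 counts in any library: CYCD4;1, DEL1, CYCA1;1, CYCA2;1, CYCA3;1, CDKB1;1, CDKB1;2, WEE1 and 7 of the 9 B-type cyclins. With no filter edgeR tested all 15 in each comparison and called none, with at most 1 at an unadjusted p below 0.05, and DESeq2 called none of the 2 to 13 for which it gave an adjusted p.

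**Figure D1:**
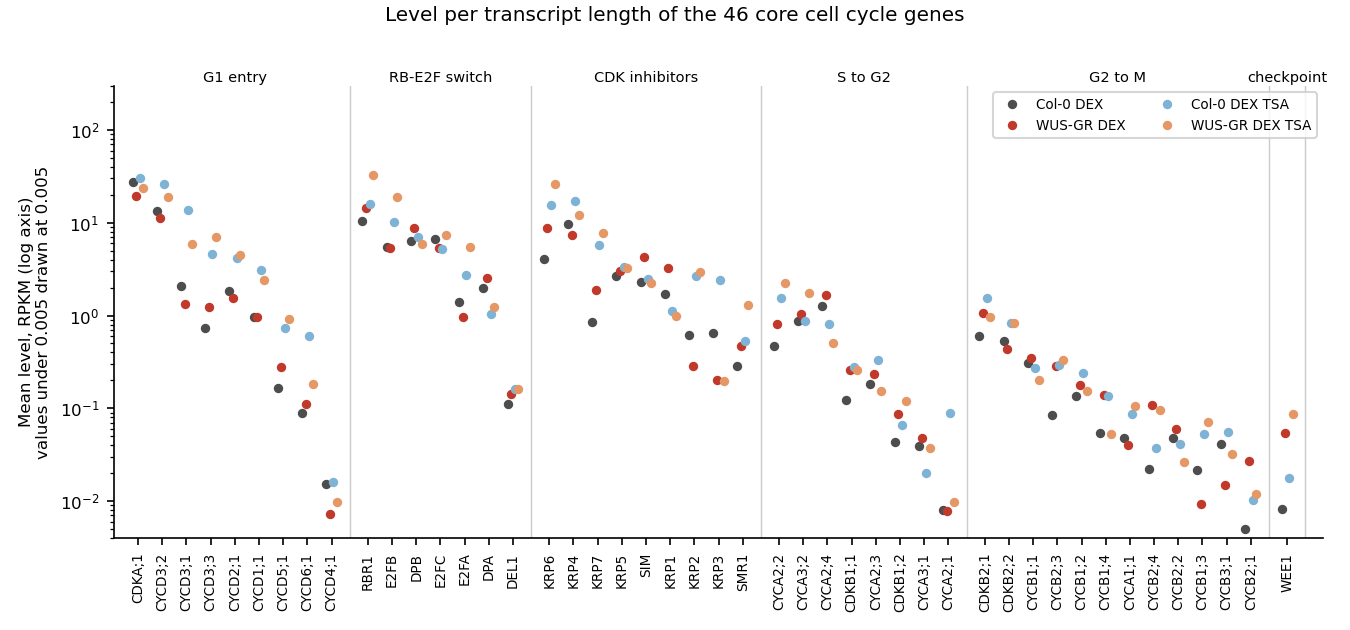
Mean level of each of the 46 core cell cycle genes in the 4 groups, in RPKM on a log axis, ordered by phase class and within a class by the mean over all libraries, with values under 0.005 drawn at 0.005. CDKA;1, RBR1 and CYCD3;2 lie highest, at averages of 25.2, 18.3 and 17.3 RPKM, and the highest group mean of the G2 to M genes is 1.55 RPKM (CDKB2;1 in Col-0 with TSA).

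The 250 bases before the annotated start of each gene were searched on both strands for the E2F words TTTCCCGC and TTTGGCGC, for AACGG, the core of the mitosis-specific activator (MSA) element of B-type cyclin promoters, and for the WUS word TTAATGG. An E2F word stood before 2 of the 46 genes (4.35%), among them RBR1, against 0.958% of 27443 promoters of all genes. AACGG stood before 19 of the 46 (41.3%) and before 8 of the 12 G2 to M genes (66.7%), against 20.6% of all promoters, and the WUS word before CYCD1;1 alone (2.17% against 6.99%). Printed below, from the RefSeq assembly TAIR10.1 and 5′ to 3′ toward the gene, are the promoters of RBR1, of E2FA, whose WUS effect differed most with TSA among the positive calls given below, of KRP1, which held the most MSA cores (6), and of the mitotic cyclin CYCB1;1, with the words found in capitals on either strand (AACGG reads CCGTT on the other strand).
RBR1 (chr3:3919360-3919609, minus strand): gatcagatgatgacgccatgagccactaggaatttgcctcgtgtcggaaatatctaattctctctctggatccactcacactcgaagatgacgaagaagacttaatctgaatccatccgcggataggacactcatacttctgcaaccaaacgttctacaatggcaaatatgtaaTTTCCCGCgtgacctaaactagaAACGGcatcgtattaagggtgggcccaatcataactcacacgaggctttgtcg
E2FA (chr2:15119266-15119515, plus strand): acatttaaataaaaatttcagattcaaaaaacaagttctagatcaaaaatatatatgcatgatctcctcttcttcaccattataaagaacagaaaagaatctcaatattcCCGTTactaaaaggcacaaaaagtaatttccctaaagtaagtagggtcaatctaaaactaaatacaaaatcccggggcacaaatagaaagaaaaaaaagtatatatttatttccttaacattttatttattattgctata
KRP1 (chr2:9978091-9978340, minus strand): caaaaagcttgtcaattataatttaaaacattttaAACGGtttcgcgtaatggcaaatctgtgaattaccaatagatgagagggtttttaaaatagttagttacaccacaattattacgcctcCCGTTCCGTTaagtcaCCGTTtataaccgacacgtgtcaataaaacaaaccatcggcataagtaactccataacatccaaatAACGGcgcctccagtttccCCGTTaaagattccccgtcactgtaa
CYCB1;1 (chr4:17624309-17624558, minus strand): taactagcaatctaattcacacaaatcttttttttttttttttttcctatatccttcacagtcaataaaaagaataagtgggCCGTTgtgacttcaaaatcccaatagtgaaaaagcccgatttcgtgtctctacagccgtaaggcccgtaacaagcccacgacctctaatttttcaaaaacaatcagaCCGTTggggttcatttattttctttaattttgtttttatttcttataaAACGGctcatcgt
The E2F word ended 69 bases before the start of RBR1, which also holds 1 MSA core. In KRP1 a pair of MSA cores lies side by side, and no words overlap in the promoters printed. A match describes the letters in the window and is not a binding site.

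TSA changed the level of most tested core genes, mainly upward. In Col-0, TSA was followed by higher levels of 17 of the 28 tested genes and lower levels of 2 (edgeR quasi-likelihood test, adjusted p below 0.05 over all genes tested), against 31.7% of all genes higher and 32.5% lower. At least 2-fold higher were 12 of the 28, against 13.9% of all genes, and no core gene was at least 2-fold lower, against 13.9% (no core gene at an unadjusted p below 0.05 or by DESeq2 either). In WUS-GR, TSA raised 19 of 27 and lowered 5, against 35.6% and 38.1%, and 13 and 3 of these changed at least 2-fold, against 15.6% and 18.0%. The median log2 change of the tested genes was 0.96 in Col-0 and 0.91 in WUS-GR, beside 0.00 and -0.03 over all genes. Library totals alone gave 15 higher and 6 lower in WUS-GR. The 10-count minimum gave 16 higher and 5 lower of 23 there, against 5489 and 5824 of 15174 genes. In Col-0, CYCD5;1, CYCD6;1 and KRP3 passed the main filter only through the libraries with TSA. The 10-count minimum gave 13 higher and 2 lower of 23 in Col-0, against 5041 and 5102 of 15547 genes. Of the 13 higher, 8 were at least 2-fold higher. Summed over 3 shoot meristem markers, of which CLV3 stayed at 0 to 4 counts, the level was 17.9 to 23.8 CPM in Col-0 and 12.2 to 13.7 in WUS-GR without TSA and 73 to 85.8 and 79.4 to 104 with TSA. Most of this sum was CLV1, a gene of the WUS feedback loop, at 18.0 and 10.7 CPM without and 72.7 and 89.1 with TSA, while STM averaged 2.17 CPM in Col-0, 2.01 in WUS-GR, 5.31 in Col-0 with TSA and 2.93 in WUS-GR with TSA. Of the 3 leaf genes, the chloroplast regulator GLK1 averaged 13.1, 4.87, 35.1 and 60.5 CPM in the same order. RBCS1A averaged 1188, 1005, 1807 and 1924 CPM, and CAB1 8300, 10919, 11002 and 16884. Without TSA, GLK1 was lower in every WUS-GR library (4.02 to 5.52 CPM) than in every Col-0 library (11.4 to 16.1). RBCS1A averaged lower and CAB1 higher in WUS-GR without TSA, but their libraries overlapped between the genotypes. The part of these markers in the TSA and WUS effects was not tested.

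WUS moved fewer of them and in both directions, as it did over all genes. Without TSA, 9 of 27 tested genes were higher in WUS-GR and 4 lower, against 29.3% and 28.6% of all genes, with a median of 0.25 beside 0.02. Of these, 2 were at least 2-fold higher (10.2% of all genes), and none of the 4 was at least 2-fold lower (11.1% of all genes). That count of none was the same at an unadjusted p below 0.05, while DESeq2's Wald test, the fit of 12 libraries and the fit with no filter each called 1. With TSA, 9 of 29 were higher in WUS-GR and 7 lower, against 27.0% and 27.8%, and 3 of each changed at least 2-fold, against 7.24% and 10%. The median with TSA was 0.10 beside -0.01 over all genes. Scaled by library totals, 10 genes were higher and 2 lower without TSA, and 5 higher and 10 lower with TSA. Over all genes that scaling called 5626 higher and 4438 lower of 17285 without TSA, and 2774 and 7024 of 16873 with TSA.

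The interaction asks whether the WUS effect differed between seedlings with and without TSA. It was called positive for 4 of 31 genes and negative for 5, against 17.7% and 13.3% of all genes, with a median of -0.29 beside 0.00. A difference of at least 2-fold was called in 1 and 4 of them, against 6.11% and 5.22% of all genes. All 4 positive calls were RBR1 and the E2F genes E2FA, E2FB and E2FC, and the negative calls were the inhibitors KRP1, KRP3 and SIM, the kinase CDKB2;1 and DPB. With library totals alone, 3 genes were positive and 13 negative. The TSA effects and the WUS effects share their libraries, so each is given by its own values.

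**Figure D2:**
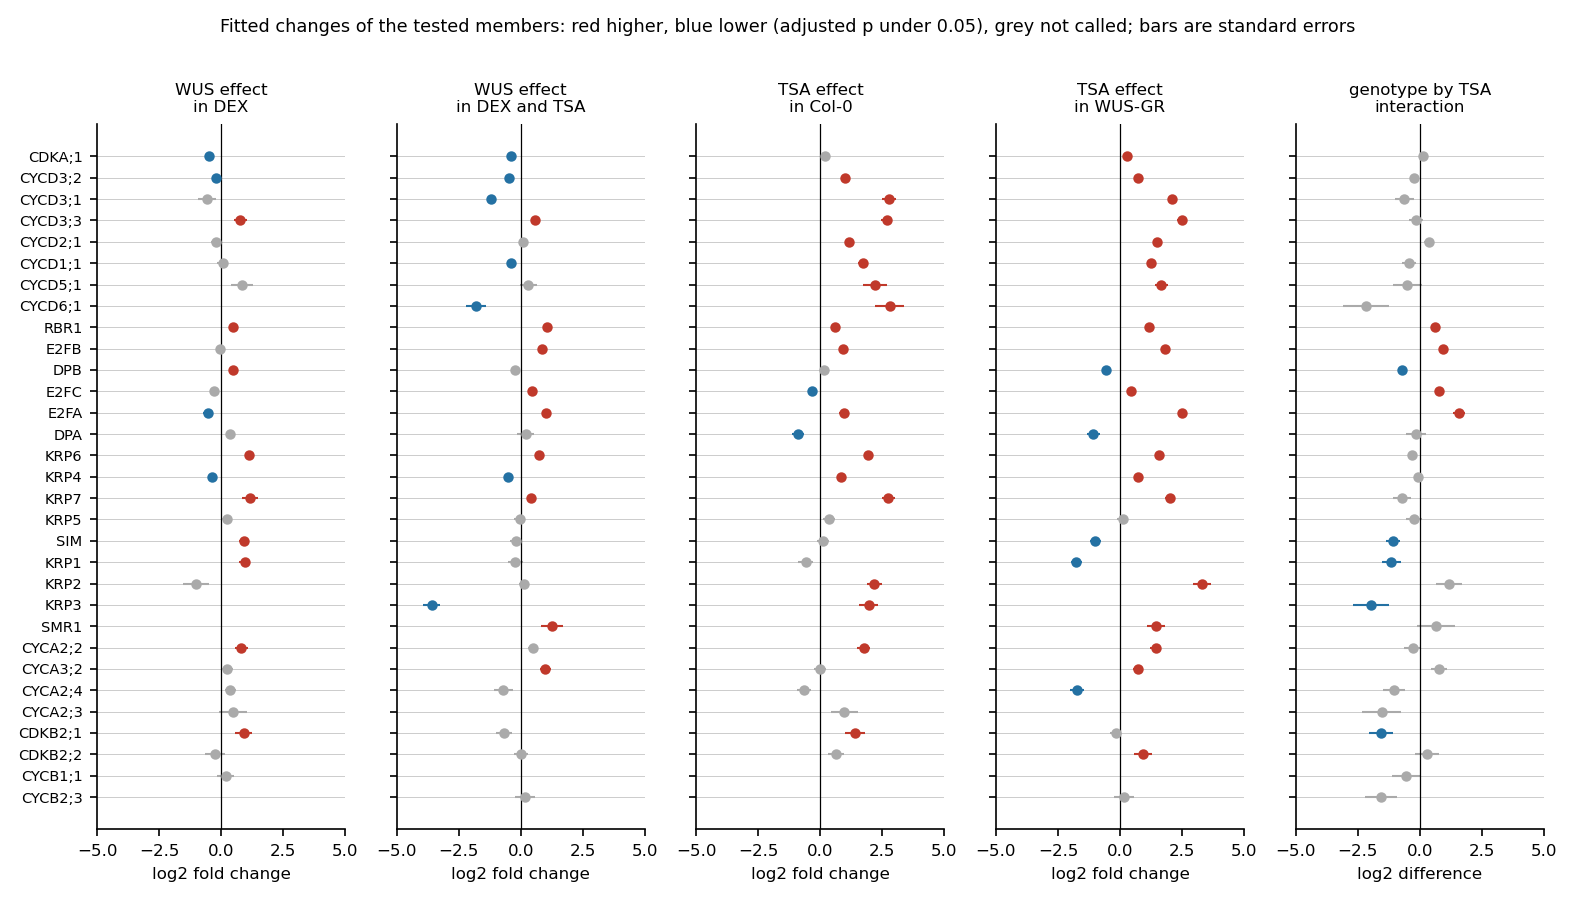
Fitted log2 change of every tested core gene in each of the 5 comparisons, with standard errors from edgeR, red where higher and blue where lower at an adjusted p below 0.05, grey where neither, and blank where the counts were too low. The D-type cyclins stand right of 0 under TSA in both genotypes, and in the interaction RBR1, E2FA, E2FB and E2FC stand to the right of 0 while KRP1, KRP3 and SIM stand to the left.

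The 7 D-type cyclins that could be tested in Col-0 were called higher with TSA, 6 of them at least 2-fold (31.7% and 13.9% of all genes), with a median log2 change of 2.20, and so were the 6 that could be tested in WUS-GR (35.6% of all genes), with a median of 1.59. CYCD6;1 passed the filter on low counts in Col-0 only through the libraries with TSA, and without it the count there is 6 of 6. So did a further member, described below, which had 8, 6 and 3 counts in Col-0 without TSA. The count of 6 at least 2-fold higher and the median of 2.20 in Col-0 include both of these genes. With at least 10 counts required in every library, which leaves out both, the count in Col-0 is 5 of 5. With no filter it is 7 of 7. All members with a value were called higher also with library totals, with DESeq2 and with each library left out. CYCD3;1 (AT4G34160), which promotes division in young leaves and responds to cytokinin, was at 6.36, 3.47 and 1.89 CPM (counts scaled to the TMM-adjusted library size) in Col-0, 2.62, 2.45 and 2.48 in WUS-GR, 25.9, 28.1 and 22.5 in Col-0 with TSA and 12.2, 10.2 and 10.7 in WUS-GR with TSA. Every library with TSA lay above every library without it, the Col-0 libraries with TSA lay above those of WUS-GR with TSA, and without TSA the genotypes overlapped. The TSA effect was 6.75-fold in Col-0 (log2 2.75 ± 0.29, edgeR adjusted p = 7.13e-06) and 4.33-fold in WUS-GR (log2 2.11 ± 0.14, edgeR adjusted p = 5.41e-08). With TSA it was lower in WUS-GR, by a log2 change of -1.22 ± 0.12 (edgeR adjusted p = 4.12e-06), and without TSA the change was -0.58 ± 0.36 (adjusted p = 0.193). CYCD3;1 shares 40 exonic bases with a gene on the same strand that had 3518 to 9290 counts.

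CYCD3;3 (AT3G50070), a D-type cyclin of the same subfamily, was higher with TSA and was also called higher in WUS-GR, as no other D-type cyclin was. It stood at 0.998, 1.3 and 0.849 CPM in Col-0, 2.16, 1.45 and 1.72 in WUS-GR, 5.69, 7.8 and 6.62 in Col-0 with TSA and 10.9, 9.16 and 10.2 in WUS-GR with TSA. No groups overlapped. TSA raised it 6.37-fold in Col-0 and 5.59-fold in WUS-GR (log2 2.67 ± 0.23 and 2.48 ± 0.17, edgeR adjusted p = 1.67e-06 and 7.84e-08). The WUS effect was 0.57 ± 0.15 with TSA (edgeR adjusted p = 0.00565) and 0.78 ± 0.27 without (adjusted p = 0.0305). Library totals gave 0.343 with TSA, which was not called. Without TSA the call was lost with DESeq2 and when Col-0 replicate 1 or 3 or WUS-GR replicate 1 or 3 was left out, at log2 changes of 0.743, 0.63, 0.618 and 0.795.

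CYCD3;2 (AT5G67260), the most abundant D-type cyclin per length, had 22, 24 and 20.8 CPM in Col-0, 18.8, 18.1 and 19.2 in WUS-GR, 44.9, 41.1 and 46.1 in Col-0 with TSA and 31.5, 32 and 31.3 in WUS-GR with TSA. WUS-GR lay below Col-0 in both treatments without overlap. The TSA effects were 0.99 ± 0.10 in Col-0 and 0.73 ± 0.08 in WUS-GR (edgeR adjusted p = 4.71e-06 and 3.03e-06), and the WUS effect with TSA was -0.49 ± 0.09 (adjusted p = 0.000513). The small WUS effect without TSA, -0.23 ± 0.09 (edgeR adjusted p = 0.0449), kept its call only when Col-0 replicate 3 was the library left out, and its log2 change ran from -0.248 to -0.178 over the 5 fits that lost it, without Col-0 replicate 1 or 2 or WUS-GR replicate 1, 2 or 3. It was also lost with library totals, no filter, the replicate block and DESeq2.

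CYCD6;1 (AT4G03270), a target of SHORTROOT in the formative divisions of the root, was detected mainly in Col-0 with TSA. Its counts were 4, 4 and 0 in Col-0, 3, 6 and 3 in WUS-GR, 15, 20 and 23 in Col-0 with TSA and 3, 4 and 6 in WUS-GR with TSA. The Col-0 libraries with TSA stood apart from the other 9, which overlapped, and the gene passed the filter only through them. Its fitted log2 changes, 2.79 ± 0.58 for TSA in Col-0 and -1.81 ± 0.42 for WUS with TSA (edgeR adjusted p = 0.0013 and 0.00283), rest on these few counts and were called also with no filter. It lies over 393 exonic bases opposite a gene with 1776 to 6160 counts, and without a stated strand setting reads of the pair cannot be told apart.

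The remaining D-type cyclins followed the same direction under TSA. CYCD1;1 (AT1G70210), whose promoter holds the WUS word, averaged 2.4 ± 0.652 (SD, n = 3) CPM in Col-0, 2.44 ± 0.165 in WUS-GR, 7.76 ± 0.661 in Col-0 with TSA and 5.98 ± 0.926 in WUS-GR with TSA. CYCD2;1 (AT2G22490), a G1 cyclin that responds to sugar supply, averaged 3.18 ± 0.292, 2.69 ± 0.165, 7.18 ± 0.327 and 7.82 ± 0.988 CPM in the same order. The TSA effects of CYCD1;1 were 1.72 ± 0.20 in Col-0 and 1.26 ± 0.17 in WUS-GR, and those of CYCD2;1 1.17 ± 0.16 and 1.51 ± 0.15. CYCD5;1 (AT4G37630) had 3 to 38 counts and in Col-0 passed the filter only through the libraries with TSA. Its TSA effects were 2.20 ± 0.49 in Col-0 and 1.67 ± 0.28 in WUS-GR. For these genes no library with TSA overlapped one without it in the same genotype. With TSA, CYCD1;1 was lower in WUS-GR by a log2 change of -0.39 ± 0.16 (edgeR adjusted p = 0.0478), a call that was lost without Col-0 replicate 1 or 2 or WUS-GR replicate 1 or 2 of the TSA groups, at -0.36, -0.355, -0.445 and -0.261, and in several other settings, among them DESeq2 (adjusted p = 0.126). In all, 4 of 7 D-type cyclins were called lower and CYCD3;3 higher in WUS-GR with TSA, against 27.8% and 27.0% of all genes, or 3 of 6 lower without CYCD6;1. With CYCD1;1 lost, most other settings called 3 lower. The interaction was not called for any of the 7 by edgeR or DESeq2, 1 of them (CYCD6;1) had an unadjusted p below 0.05, and with library totals alone 3 were called negative. CYCD4;1, the other member, had at most 1 count.

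**Figure D3:**
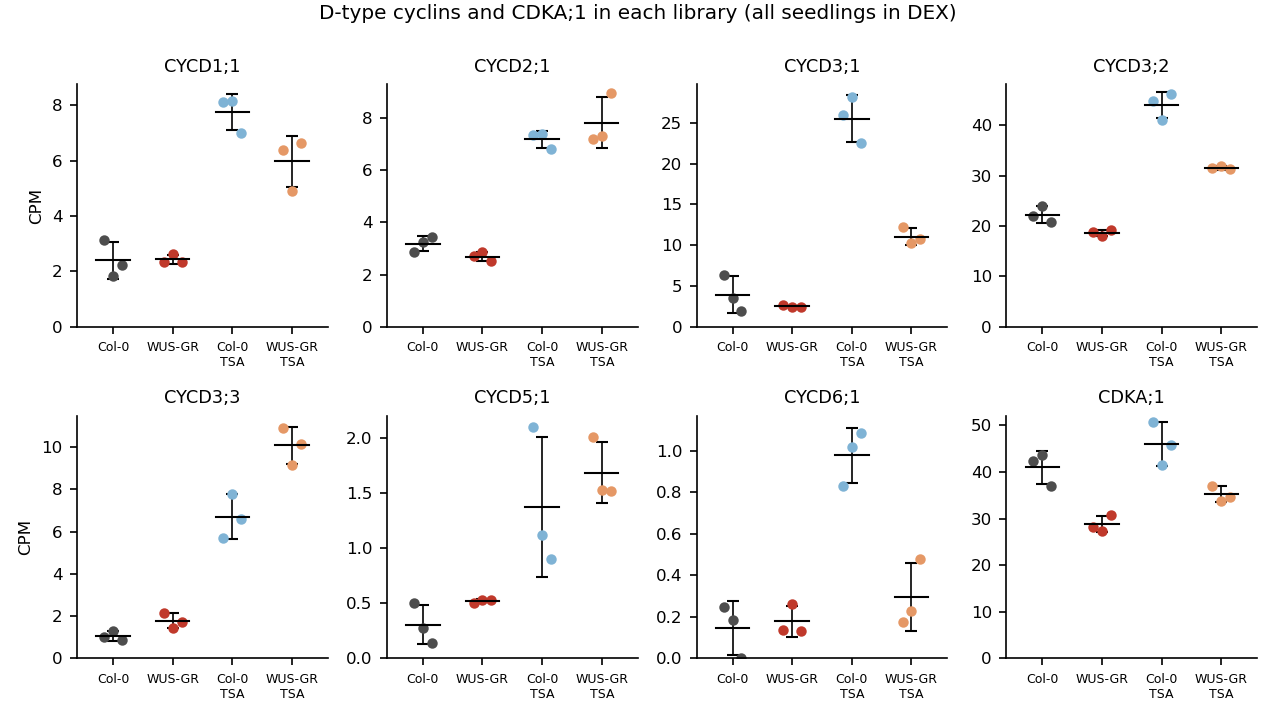
CPM of 7 D-type cyclins and of CDKA;1 in each library (points), with the mean (line) and SD (bars) of the 3 replicates of each group, all in DEX. For every cyclin except CYCD6;1 in WUS-GR the libraries with TSA lie above those without, whereas CDKA;1 lies lower in WUS-GR within each treatment.

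CDKA;1 (AT3G48750), the kinase that all phases share, was lower in WUS-GR in both treatments. Col-0 had 42.4, 43.7 and 37 CPM, WUS-GR 28.3, 27.4 and 30.8, Col-0 with TSA 50.8, 41.4 and 45.8 and WUS-GR with TSA 37.1, 33.8 and 34.6. Within a treatment the genotypes did not overlap. The WUS effect was -0.48 ± 0.09 without TSA and -0.40 ± 0.10 with TSA (edgeR adjusted p = 0.00105 and 0.00445). Its TSA effect was small, 0.17 ± 0.11 in Col-0 (adjusted p = 0.174) and 0.27 ± 0.08 in WUS-GR (edgeR adjusted p = 0.00967), and the latter turned to -0.116 with library totals.

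RBR1 and the 3 E2F genes were the 4 positive interaction calls. With TSA, all 4 were higher in WUS-GR (all but E2FC also with library totals), and without TSA RBR1 was higher and E2FA lower. RBR1 (AT3G12280) had 38.1, 43.3 and 40.7 CPM in Col-0, 51.6, 56.7 and 56.9 in WUS-GR, 61.4, 65.3 and 55.3 in Col-0 with TSA and 129, 132 and 117 in WUS-GR with TSA. The WUS-GR libraries with TSA lay above the other 9, and WUS-GR lay above Col-0 in both treatments. The WUS effect was 1.37-fold without TSA (log2 0.46 ± 0.08, edgeR adjusted p = 0.000728) and 2.06-fold with TSA (log2 1.04 ± 0.09, adjusted p = 1.48e-06). Their difference was 0.62 ± 0.12 (edgeR adjusted p = 0.00117), which was 0.290 with library totals (adjusted p = 0.0752). TSA raised RBR1 by 0.58 ± 0.10 in Col-0 and 1.17 ± 0.08 in WUS-GR (edgeR adjusted p = 0.000288 and 9.91e-08). RBR1 overlaps a neighbour with 170 to 559 counts by 28 exonic bases.

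E2FA (AT2G36010), an activator of replication genes with DPA or DPB as partner, showed the largest positive interaction. Its levels were 3.31, 2.92 and 2.74 CPM in Col-0, 2.02, 2.37 and 1.68 in WUS-GR, 5.36, 7.08 and 4.82 in Col-0 with TSA and 11.8, 11.9 and 11.2 in WUS-GR with TSA. No groups overlapped, and the order of the genotypes turned with TSA. TSA raised it 1.94-fold in Col-0 and 5.67-fold in WUS-GR (log2 0.96 ± 0.20 and 2.50 ± 0.15, edgeR adjusted p = 0.00135 and 2.65e-08). The WUS effect was 1.01 ± 0.15 with TSA (adjusted p = 0.00014 by edgeR) and -0.53 ± 0.20 without (adjusted p = 0.0445), and the interaction 1.57 ± 0.24 (edgeR adjusted p = 0.000191). The lower level in WUS-GR without TSA was no longer called when Col-0 replicate 1 or 2 or WUS-GR replicate 1 or 3 was left out (-0.459, -0.558, -0.526 and -0.414), with library totals, with no filter or with DESeq2 (adjusted p = 0.108), and the interaction was called in all these settings.

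E2FB (AT5G22220), the other activating E2F, had 10.7, 11.2 and 11.6 CPM in Col-0, 10.4, 10.8 and 10.7 in WUS-GR, 19.6, 24.5 and 18.1 in Col-0 with TSA and 39, 40.4 and 33.5 in WUS-GR with TSA. The genotypes overlapped without TSA and were apart with it. Its WUS effect was -0.04 ± 0.09 without TSA and 0.85 ± 0.12 with TSA (edgeR adjusted p = 0.735 and 9.74e-05), with an interaction of 0.93 ± 0.16 (adjusted p = 0.000445). TSA raised E2FB 1.87-fold in Col-0 and 3.49-fold in WUS-GR (edgeR adjusted p = 9.75e-05 and 1.16e-08).

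E2FC (AT1G47870), which acts mainly as a repressor, was lowered by TSA in Col-0 and raised in WUS-GR. It was at 10.9, 11.3 and 11.4 CPM in Col-0, 7.58, 10.4 and 9.29 in WUS-GR, 7.96, 9.68 and 8.84 in Col-0 with TSA and 12.6, 12 and 12.5 in WUS-GR with TSA. WUS-GR lay below Col-0 without TSA and above it with TSA. Without TSA the WUS effect on E2FC was not called in the main fit, and ran from -0.383 to -0.161 with 1 library left out. The fit of 12 libraries called it lower (-0.303, edgeR adjusted p = 0.0413). The TSA effect was -0.34 ± 0.13 in Col-0 and 0.42 ± 0.12 in WUS-GR (edgeR adjusted p = 0.0326 and 0.00804), and the interaction was 0.79 ± 0.17 (adjusted p = 0.00263). The TSA effect in Col-0 lost its call without Col-0 replicate 2 or 3 or Col-0 TSA replicate 1 or 3 (-0.334, -0.329, -0.277 and -0.333) and with DESeq2, and that in WUS-GR was 0.038 with library totals.

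DPA and DPB, the partners of the E2Fs, gave other patterns. DPB (AT5G03415) had 12, 12.3 and 11.4 CPM in Col-0, 16.1, 16.6 and 16.8 in WUS-GR, 14, 13.8 and 11.6 in Col-0 with TSA and 12.2, 10.7 and 10.6 in WUS-GR with TSA. WUS-GR without TSA stood above the other groups. Its WUS effect was 0.50 ± 0.08 without TSA and -0.24 ± 0.12 with TSA (edgeR adjusted p = 0.000708 and 0.115, or -0.476 and called lower with TSA under library totals), and the interaction was -0.70 ± 0.14 (adjusted p = 0.00163). DPA (AT5G02470) was lower with TSA in both genotypes, with 3.56, 2.87 and 3.44 CPM in Col-0, 4.41, 3.68 and 4.47 in WUS-GR, 1.6, 2.29 and 1.32 in Col-0 with TSA and 1.06, 2.6 and 2.4 in WUS-GR with TSA. No library with TSA reached one without it. The TSA effects of DPA were -0.91 ± 0.25 and -1.08 ± 0.26 (edgeR adjusted p = 0.00733 in Col-0 and 0.00261 in WUS-GR). DEL1, an E2F-like repressor of endoreduplication, had 1 to 8 counts and was not tested.

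**Figure D4:**
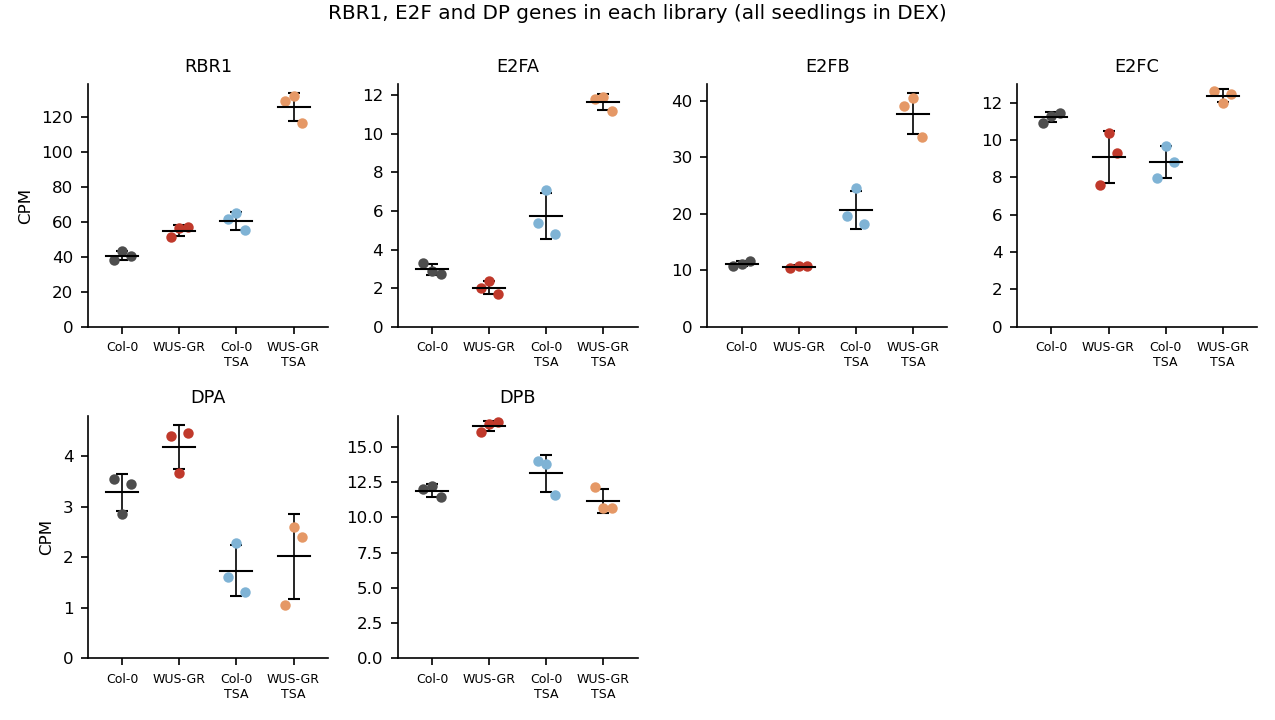
CPM of RBR1, E2FA, E2FB, E2FC, DPA and DPB in each library (points) with the mean (line) and SD (bars) of each group of 3, all in DEX. RBR1, E2FA and E2FB are highest in WUS-GR with TSA, at 126 ± 7.95, 11.7 ± 0.393 and 37.7 ± 3.64 CPM, whereas DPB is highest in WUS-GR without TSA.

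Among the inhibitors, TSA raised 5 of 8 tested genes in Col-0 (31.7% of all genes) and 5 of 8 in WUS-GR (35.6%), where it lowered KRP1 and SIM, 2 of 8 (38.1%). With at least 10 counts required in every library, TSA raised 3 of 5 tested KRP genes in Col-0, against 5041 of 15547 genes. In WUS-GR it then raised 3 of 5 and lowered 1, against 5489 and 5824 of 15174 genes. Without TSA, WUS-GR had higher KRP1, KRP6, KRP7 and SIM and lower KRP4. KRP6 (AT3G19150), which in pollen is a target of the F-box protein FBL17, was higher with WUS and with TSA, at 5.12, 6.39 and 7.08 CPM in Col-0, 13.4, 13.1 and 13.3 in WUS-GR, 22.4, 22.5 and 25.1 in Col-0 with TSA and 42.2, 34.2 and 42.9 in WUS-GR with TSA. The 4 groups were apart in this order. The WUS effect on KRP6 was 2.16-fold without TSA and 1.69-fold with TSA (log2 1.11 ± 0.13 and 0.75 ± 0.11, edgeR adjusted p = 4.65e-05 and 9.29e-05). TSA raised it 3.76-fold in Col-0 and 2.95-fold in WUS-GR (edgeR adjusted p = 3.71e-07 and 3.42e-08).

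KRP7 (AT1G49620), another target of FBL17, had 1.06, 1.43 and 0.613 CPM in Col-0, 2.34, 1.62 and 2.92 in WUS-GR, 7.96, 5.81 and 7.14 in Col-0 with TSA and 8.8, 9.0 and 10.3 in WUS-GR with TSA. The groups were again apart in this order. TSA raised KRP7 6.71-fold in Col-0 and 4.01-fold in WUS-GR (log2 2.75 ± 0.27 and 2.00 ± 0.19, edgeR adjusted p = 4.8e-06 and 1.25e-06). The WUS effect was 1.17 ± 0.33 without TSA (edgeR adjusted p = 0.0133), or 0.953 and not called without WUS-GR replicate 3. With TSA it was 0.41 ± 0.15 (edgeR adjusted p = 0.033), and this call held only when Col-0 TSA replicate 1 was the library left out, with 0.298 to 0.459 in the fits without Col-0 TSA replicate 2 or 3 or WUS-GR TSA replicate 1, 2 or 3, and 0.182 with library totals.

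KRP2 (AT3G50630), which in Arabidopsis restrains lateral root initiation, was raised by TSA in both genotypes. It was at 1.06, 0.602 and 0.425 CPM in Col-0, 0.23, 0.175 and 0.575 in WUS-GR, 2.98, 3.11 and 3.02 in Col-0 with TSA and 2.66, 3.9 and 3.52 in WUS-GR with TSA. Libraries with TSA lay above those without, and the genotypes overlapped in each treatment. The TSA effect was 9.94-fold in WUS-GR and 4.5-fold in Col-0 (log2 3.31 ± 0.35 and 2.17 ± 0.31, edgeR adjusted p = 4.1e-06 and 7.99e-05). The lowest group, WUS-GR without TSA, had 5, 4 and 13 counts, so that in WUS-GR the gene passed the filter through the libraries with TSA, and it was called also with no filter.

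KRP3 (AT5G48820) was raised by TSA in Col-0 and stayed at a few counts in WUS-GR. Its counts were 20, 17 and 6 in Col-0, 6, 4 and 6 in WUS-GR, 56, 60 and 53 in Col-0 with TSA and 5, 3 and 3 in WUS-GR with TSA. The Col-0 libraries with TSA stood apart, and through them alone the gene passed the filter. In the fit with TSA, KRP3 was lower in WUS-GR by a log2 change of -3.60 ± 0.33 (edgeR adjusted p = 2.26e-06), and the TSA effect in Col-0 was 1.95 ± 0.38 (adjusted p = 0.000799), both called also with no filter. Without TSA, where the filter left it out, KRP3 was lower in WUS-GR with no filter (-1.61 ± 0.56, edgeR adjusted p = 0.0307) and with DESeq2 (-1.67 ± 0.72, adjusted p = 0.0443). The interaction, -1.97 ± 0.72 (edgeR adjusted p = 0.0499), was called in the fit without Col-0 replicate 1 and lost in the 11 others that left out 1 library, each other library in turn, with values of -2.204 to -1.55.

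KRP4 (AT2G32710), which in the shoot meristem takes part in setting cell size and whose level per length came next to that of KRP6 among the inhibitors, had 25.2, 23.7 and 20.5 CPM in Col-0, 16.9, 17.5 and 18 in WUS-GR, 41.7, 40.9 and 40.6 in Col-0 with TSA and 32.4, 26.3 and 29.4 in WUS-GR with TSA. WUS-GR was below Col-0 in both treatments and TSA libraries were above the others. The WUS effects were -0.38 ± 0.09 and -0.50 ± 0.10 without and with TSA (edgeR adjusted p = 0.00652 and 0.000937), and the TSA effects 0.83 ± 0.10 in Col-0 and 0.73 ± 0.09 in WUS-GR (adjusted p = 1.99e-05 and 1.72e-05 by edgeR). It lies over 926 exonic bases opposite a gene that had 17 to 60 counts.

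KRP1 (AT2G23430) and SIM (AT5G04470), which turns trichome cells from division to endoreduplication, were both higher in WUS-GR without TSA and overlapped the Col-0 libraries with it. KRP1, with 6 MSA cores in its promoter, was at 2.0, 1.57 and 2.5 CPM in Col-0, 4.41, 3.29 and 3.89 in WUS-GR, 0.939, 1.38 and 1.65 in Col-0 with TSA and 1.12, 0.962 and 1.44 in WUS-GR with TSA. SIM was at 2.0, 1.57 and 1.93 CPM in Col-0, 3.35, 3.42 and 3.45 in WUS-GR, 1.93, 1.83 and 2.13 in Col-0 with TSA and 1.65, 1.36 and 2.32 in WUS-GR with TSA. For both, WUS-GR without TSA lay above the 9 other libraries. The WUS effect without TSA was 0.95 ± 0.22 for KRP1 and 0.92 ± 0.18 for SIM (edgeR adjusted p = 0.00392 and 0.0017), and with TSA -0.22 ± 0.31 and -0.19 ± 0.26 (adjusted p = 0.573 and 0.56). The interactions were -1.14 ± 0.37 and -1.07 ± 0.30 (edgeR adjusted p = 0.0301 and 0.013). In WUS-GR, TSA lowered KRP1 by a log2 change of -1.76 ± 0.22 and SIM by -0.99 ± 0.21 (edgeR adjusted p = 1.88e-05 and 0.00105). The interaction of KRP1 lost its call without Col-0 replicate 2, Col-0 TSA replicate 2 or 3, WUS-GR replicate 1 or 3 or WUS-GR TSA replicate 1 or 2, at -1.128 to -0.938.

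SMR1 (AT3G10525), a relative of SIM, was highest in WUS-GR with TSA, where it had 17, 23 and 11 counts, against 11, 3 and 12 in Col-0 with TSA, 6, 13 and 7 in WUS-GR and 1, 9 and 5 in Col-0. In CPM the WUS-GR libraries with TSA lay above all others. With TSA it was higher in WUS-GR by 1.26 ± 0.43 (edgeR adjusted p = 0.0246), a call lost without Col-0 TSA replicate 2 or WUS-GR TSA replicate 1 or 2 (0.856, 1.311 and 1.082) with DESeq2 (adjusted p = 0.0694) and with library totals. It passed the filter only through this group, and with no filter it was called as well. TSA raised SMR1 in WUS-GR by 1.44 ± 0.37 (edgeR adjusted p = 0.00349). KRP5 (AT3G24810), tested in all comparisons and called in none of them, averaged from 2.62 ± 0.48 CPM in Col-0 to 3.32 ± 0.632 in Col-0 with TSA.

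**Figure D5:**
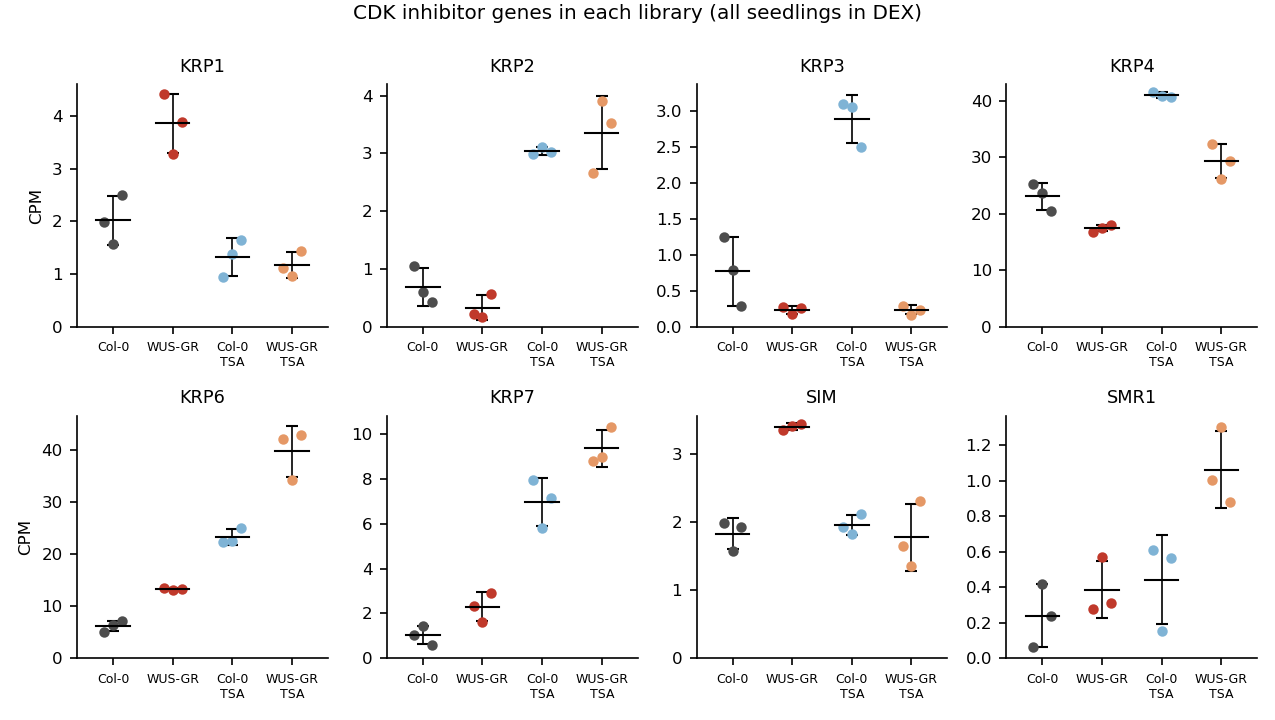
CPM of 6 KRP genes, SIM and SMR1 in each library (points) with the mean (line) and SD (bars) of each group of 3, all in DEX. KRP6 and KRP7 are ordered Col-0, WUS-GR, Col-0 with TSA and WUS-GR with TSA, KRP1 and SIM are highest in WUS-GR without TSA, and KRP3 is high only in Col-0 with TSA, at 2.89 ± 0.33 CPM.

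Of the 8 S to G2 genes, 4 could be tested. CYCA2;2 (AT5G11300) was higher with TSA in both genotypes, at 1.06, 0.833 and 0.802 CPM in Col-0, 1.61, 1.62 and 1.42 in WUS-GR, 2.43, 3.57 and 2.98 in Col-0 with TSA and 4.19, 3.45 and 5.28 in WUS-GR with TSA. Only the groups with TSA overlapped each other. Its TSA effects were 1.75 ± 0.26 in Col-0 and 1.43 ± 0.21 in WUS-GR (edgeR adjusted p = 0.000127 and 5.03e-05). The WUS effect without TSA, 0.82 ± 0.25 (edgeR adjusted p = 0.0166), lost its call without Col-0 replicate 2 or WUS-GR replicate 1 or 2 (0.758, 0.795 and 0.787) and with DESeq2. CYCA2;4 (AT1G80370), of the same subfamily, was at 1.93, 2.41 and 2.69 CPM in Col-0, 2.62, 3.64 and 2.79 in WUS-GR, 0.939, 1.43 and 2.03 in Col-0 with TSA and 1.18, 0.566 and 1.04 in WUS-GR with TSA. In WUS-GR the TSA libraries lay below the others, and TSA lowered it by a log2 change of -1.73 ± 0.28 (edgeR adjusted p = 0.000125). In Col-0 the groups overlapped and the TSA effect was not called, at -0.972 to -0.444 with 1 library left out. Library totals (-0.749) and the replicate block (-0.688) called it lower there (edgeR adjusted p = 0.0392 and 0.0385). The interaction of CYCA2;4 was not called in the main fit, and was called negative with library totals. CYCA3;2 (AT1G47210), a cyclin of the entry into S phase, averaged 1.57 ± 0.299 CPM in Col-0, 1.86 ± 0.382 in WUS-GR, 1.57 ± 0.0969 in Col-0 with TSA and 3.14 ± 0.341 in WUS-GR with TSA, and its WUS effect with TSA was 0.99 ± 0.21 (edgeR adjusted p = 0.00178). CYCA2;3, the remaining tested gene, had 3 to 16 counts and was called in no comparison.

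In the G2 to M class, CDKB2;1 (AT1G76540), a kinase of dividing cells in the shoot meristem, was the most abundant. It had 1.25, 0.463 and 0.755 CPM in Col-0, 1.42, 1.49 and 1.5 in WUS-GR, 2.98, 1.99 and 1.37 in Col-0 with TSA and 1.3, 1.3 and 1.36 in WUS-GR with TSA. The Col-0 replicates spread widely in both treatments while those of WUS-GR lay close together. The WUS effect was 0.91 ± 0.33 without TSA and -0.68 ± 0.31 with TSA (edgeR adjusted p = 0.04 and 0.0794, with -0.91 and a call of lower with TSA under library totals), and the interaction -1.55 ± 0.47 (adjusted p = 0.0207 by edgeR). The interaction was not called without Col-0 replicate 2 or Col-0 TSA replicate 1 (-1.25 and -1.243). Without TSA the call was lost in 5 of 6 fits that left out 1 library, all but that without Col-0 replicate 1 (0.595 without Col-0 replicate 2, 0.874 without replicate 3, and 0.93, 0.898 and 0.888 without WUS-GR replicates 1, 2 and 3), and with DESeq2. TSA raised CDKB2;1 in Col-0 by 1.40 ± 0.39 (edgeR adjusted p = 0.00884, or 1.065 and not called without Col-0 TSA replicate 1). CDKB2;2 (AT1G20930) had 8 to 25 counts, and TSA raised it in WUS-GR by 0.91 ± 0.36 (edgeR adjusted p = 0.0397), a call that was lost with DESeq2, with library totals (0.527) and in 5 fits, without WUS-GR replicate 1 or 2 or WUS-GR TSA replicate 1, 2 or 3 (0.629 to 0.946). The mitotic cyclin CYCB1;1 (AT4G37490), whose promoter is printed above, had 7, 13 and 10 counts in Col-0, 15, 10 and 13 in WUS-GR, 9, 11 and 6 in Col-0 with TSA and 6, 7 and 3 in WUS-GR with TSA. The genotypes overlapped in each treatment, and its WUS effect without TSA was 0.18 ± 0.34 (edgeR adjusted p = 0.687). CYCB2;3 (AT1G20610), the other B-type cyclin of the set with a test, had 3, 4 and 3 counts in Col-0, 12, 8 and 19 in WUS-GR, 14, 13 and 7 in Col-0 with TSA and 9, 12 and 10 in WUS-GR with TSA. Col-0 without TSA lay below the other groups. CYCB2;3 was not called in the 3 comparisons that tested it, though library totals called its interaction (-1.874, adjusted p = 0.0323). In the other 2 it did not pass the filter; with no filter the WUS effect without TSA was 1.76 ± 0.55 and the TSA effect in Col-0 1.74 ± 0.60 (edgeR adjusted p = 0.0172 and 0.0194), and DESeq2 called neither (adjusted p = 0.0507 and 0.0571). WEE1 (AT1G02970), the kinase of the DNA damage checkpoint, had 0, 1 and 0 counts in Col-0, 1, 3 and 3 in WUS-GR, 0, 2 and 0 in Col-0 with TSA and 2, 1 and 4 in WUS-GR with TSA.

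Another 65 cell cycle genes outside the core set were read beside it, among them those of replication, mitosis, their transcriptional regulators and the CDK-activating kinases. Without TSA, 23 of the 41 tested were higher in WUS-GR and 3 lower (29.3% and 28.6% of all genes), with a median of 0.83, and among the genes of replication licensing and S phase 10 of 13 were higher and the other 3 were not called, with a median of 1.27. ETG1, a replisome factor, was higher by 2.26 ± 0.42 (0.25 ± 0.153 CPM in Col-0 and 1.22 ± 0.262 in WUS-GR, SD, n = 3, edgeR adjusted p = 0.00116). At that Col-0 level it passed the filter on low counts only through the WUS-GR libraries. Of the 23 replication genes listed, 13 passed the filter, and the count of 10 was not repeated under another filter. The mitotic kinase gene AUR2 was higher by 1.90 ± 0.35 and the E2F-like DEL2 by 1.65 ± 0.22 (edgeR adjusted p = 0.00103 and 0.000134), while MYB3R1, a regulator of MSA-containing genes, was lower, at -0.52 ± 0.11 (adjusted p = 0.00209). AUR2 lies over 877 exonic bases opposite another gene, and without a stated strand setting reads of the pair cannot be told apart. With TSA, 17 of 41 were higher in WUS-GR and 1 lower (27.0% and 27.8%), with 7 of the 13 replication genes higher, among them TSO2 of ribonucleotide reductase at 1.15 ± 0.17 (edgeR adjusted p = 0.000101), and AUR2 at 2.28 ± 0.34 (adjusted p = 0.000108).

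TSA raised 19 of 38 of these other genes in Col-0 and lowered 5 (31.7% and 32.5% of all genes), and raised 14 of 41 in WUS-GR and lowered 8 (35.6% and 38.1%). The mitotic microtubule gene EDE1 was raised in both, by 2.50 ± 0.32 and 2.34 ± 0.27 (edgeR adjusted p = 3.3e-05 and 7.2e-06). RNR1, the large subunit of ribonucleotide reductase, was lowered in both, at -1.01 ± 0.18 in Col-0 and -1.05 ± 0.12 in WUS-GR (edgeR adjusted p = 0.000526 and 6.6e-06). MYB3R5, a repressor of mitotic genes, was lowered as well, at -1.09 ± 0.13 and -1.30 ± 0.12 (edgeR adjusted p = 1.58e-05 in Col-0 and 8.49e-07 in WUS-GR). The replication genes, of which 5 of 11 were raised by TSA in Col-0 and 1 lowered, had a median of 0.80 there. In WUS-GR, where 2 of 14 were raised and 1 lowered, it was 0.03, over a different set of tested genes. The interaction was positive for 0 of 15 tested replication genes and negative for 1. Of all 45 other genes tested for it, 1 was positive and 5 were negative (17.7% and 13.3% of all genes).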

How the data were processed

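Raw read counts per gene, as deposited by the authors, were used for 12 poly(A) RNA-seq libraries of biological triplicates. Per the methods, reads were aligned with HISAT2 to TAIR10 and counted with featureCounts; the strand setting and annotation release are not given in the sources used here. Counts were tested with edgeR 4.0.16 (limma 3.58.1, R 4.3.3): TMM, filterByExpr with a minimum count of 10, the quasi-likelihood F-test (two-sided) and Benjamini-Hochberg adjustment over all genes tested, at 0.05. Each comparison was fitted on its own 6 libraries and the interaction on all 12. The ± of a log2 change is its standard error, the log2 change over the root of F; CPM are on the TMM scale of 12 libraries, so ratios of CPM differ slightly from fitted folds. RPKM divides by exon length. P-values weigh a difference between groups against the spread between these triplicates. Values in every library are given for the 3 largest rises and falls per comparison, interaction calls and the member of each class with the highest mean count, with further members added for their families; of other cell cycle genes, the largest rise and fall of each list of 5 or more. Members and lists were chosen with earlier results of these data known. Alternatives were DESeq2 1.42.0, its size factors, library totals, no filter, at least 10 counts in every library, a replicate block, 1 fit of 12 libraries and leaving out each library. The tests were tested on simulated data in which few genes changed. How they perform where as many genes change as were called here was not tested. Promoters came from RefSeq TAIR10.1, where 45 of 46 names matched and KRP4 was matched by locus. The promoter sequence of 1 further gene is not reported here.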

Additional observations from a re-analysis of the deposited data

Results flagged for a closer look

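The WUS effect differed between seedlings with and without TSA, by the interaction term of the edgeR quasi-likelihood fit over 12 libraries, in 9 of the 31 core genes tested. Of the core genes, 12.9% were called positive and 16.1% negative, against 17.7% and 13.3% of all genes. The difference on the log2 scale was positive for E2FA (1.57 ± 0.244, SE, edgeR adjusted p = 0.000191), E2FB (0.93 ± 0.16, 0.000445), E2FC (0.788 ± 0.171, 0.00263) and RBR1 (0.618 ± 0.12, 0.00117). It was negative for DPB (-0.702 ± 0.142, edgeR adjusted p = 0.00163), SIM (-1.07 ± 0.299, 0.013), KRP1 (-1.14 ± 0.372, 0.0301), CDKB2;1 (-1.55 ± 0.471, 0.0207) and KRP3 (-1.97 ± 0.722, 0.0499). KRP3 passed the filter on low counts through the Col-0 libraries with TSA, and its call was lost in 11 of 12 fits that left out 1 library. The groups of 3 libraries were too small to look for single libraries that stood apart.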

How the results depend on the processing

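Of the single-gene values under alternative settings other than leaving out a library, 876 kept their direction and their side of the threshold, 31 lost a call, 17 gained one and 12 turned their direction, 1 of these among called genes. Leaving out each library in turn gave 941, 64, 16 and 17. The turned values with library totals were, on the log2 scale, 0.019 for E2FB without TSA, and -0.128 for CYCD2;1, -0.035 for DPA, -0.099 for KRP2, -0.057 for CYCB2;3 and -0.213 for CDKB2;2 in the WUS effect with TSA. They were -0.116 for CDKA;1, -0.279 for KRP5 and -0.215 for CYCB2;3 in the TSA effect in WUS-GR, and -0.202 for CDKA;1 and -0.011 for CDKB2;2 in the interaction. With at least 10 counts required in every library, CDKB2;2 gave -0.005 in the WUS effect with TSA.

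Without TSA, the count of core genes lower in WUS-GR went from 4 to 2 with library totals and to 2 with the replicate block, and the count at least 2-fold lower from 0 to 1 with no filter, DESeq2 and the fit of 12 libraries. With TSA, library totals gave 5 higher and 0 at least 2-fold higher in WUS-GR, and the 10-count minimum 1 at least 2-fold higher and 1 at least 2-fold lower. DESeq2 called 1 gene lower with TSA in Col-0, and library totals gave 13 negative interactions, 9 of them at least 2-fold. DESeq2 called 9 core genes in all for the WUS effect without TSA, against 13. Leaving out 1 library at a time gave 2 to 6 lower, 1 to 4 at least 2-fold higher and 0 to 1 at least 2-fold lower for WUS without TSA, and 1 to 3 at least 2-fold higher for WUS with TSA. It gave 1 to 2 lower and 0 to 1 at least 2-fold lower for TSA in Col-0, and 2 to 7 negative, 1 to 2 at least 2-fold positive and 0 to 6 at least 2-fold negative for the interaction. Values that turned ran from -0.123 to 0.149 for CYCA3;2 (TSA in Col-0), -0.097 to 0.527 for CYCB2;3 and -0.088 to 0.233 for KRP5 (TSA in WUS-GR), -0.135 to 0.104 for CDKB2;2, -0.125 to 0.41 for CYCB2;3, -0.061 to 0.522 for DPA and -0.227 to 0.061 for KRP5 (WUS with TSA), -0.771 to 0.023 for CDKB2;2 and -0.103 to 0.284 for CYCD1;1 (WUS without TSA), and -0.426 to 0.166 for DPA and -0.174 to 0.001 for KRP4 (interaction). The cause of these changes was not tested.

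Same-numbered libraries deviated together at r = -0.267 to 0.119, with 2 of 18 pairs over 0.1, so the numbers were not taken to pair the samples. With the replicate block, 9 core genes were called for WUS without TSA (7 higher and 2 lower), 15 for WUS with TSA, 20 and 24 for TSA in Col-0 and WUS-GR, and 9 in the interaction. Most members had under 100 counts per library, which limits the folds that 3 libraries a group could show, and 15 members passed the filter in no comparison.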
